A study of Bos taurus with 16 samples.

Results

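Endometrial DNA methylation at the time of breeding was compared between postpartum dairy cows whose insemination resulted in pregnancy and those whose insemination did not, with both diets pooled. All 16 libraries of the series entered the comparison. The 8 libraries with pregnancy (P) were the 4 CON_P and the 4 MET_P libraries, and the 8 libraries without pregnancy (noP) were the 4 CON_noP and the 4 MET_noP libraries. CON cows ate a control diet, and MET cows were given rumen-protected methionine (RPM) every day from day 12 after calving. Cows that showed heat between 50 and 64 days postpartum were inseminated, and endometrial cells were taken with a cytobrush 4 to 8 h later, so that the outcome was not yet known when the cells were collected. Diet was a covariate of the main models. The study lists more DNA samples than libraries in each group, and the sources do not say whether samples were pooled or how many cows stand behind each library, so the SD and the p-values measure the spread between these libraries and not between single cows.

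Methylation of cytosines in CpG dinucleotides is copied at cell division and is usually dense over gene bodies and repeats and sparse at CpG-rich promoters of active genes. In female cells one of the X chromosomes is inactive, and the CpG-rich promoters of the inactive copy are methylated. The endometrium is the lining of the uterus to which the conceptus attaches, and its luminal and glandular epithelium, stroma, vessels and resident leukocytes differ in their methylation. In a brush sample a different mix of these cells and a different methylation level within them cannot be told apart.

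Reduced representation bisulfite sequencing (RRBS) reads methylation in MspI fragments, which come mostly from CpG-rich DNA. The table gave the percent methylation of 199395 cytosine positions in every library, of which 127870 (64.1%) carried a gene name. Values ran from 1% to 100%, because positions at zero in a library had been discarded. The percentages came without read counts, so the depth at each position is unknown. By the study's group averages, MET_P had the most raw reads per replicate, so depth was not equal between the groups. The median SD of a site between libraries was 4.54 points in MET_P, 5.11 in CON_noP, 5.85 in CON_P and 5.25 in MET_noP. The part of depth in the comparisons was not tested. The correlation of 2 libraries across positions lay between 0.914 and 0.965, with a median of 0.945 for pairs with the same outcome and 0.947 for pairs with different outcomes. Library 17 of MET_noP stood apart from the other 3 of its group in mean methylation, at 62.4% against 64.3% to 64.4%.

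The average methylation of a library differed little by pregnancy outcome. Over all sites it was 63.7% ± 1.05 in P and 63.2% ± 1.14 in noP (SD, n = 8 each), 0.483 percentage points apart (two-sided exact permutation within diets, p = 0.362, adjusted p = 0.52 over 10 measures). The P libraries ran from 62.2% to 65.1% with a median of 63.7%, and the noP libraries from 61.3% to 64.4% with a median of 63.3%, so the groups overlapped almost fully. The difference was 0.914 points in CON and 0.0516 points in MET. Sites with a gene name differed by 0.489 points (exact p = 0.334) and those without by 0.473 points (exact p = 0.422). The share of sites above 20% methylation was 81.1% in P and 80.6% in noP, a difference of 0.471 points (exact p = 0.66, adjusted p = 0.66), and it turned negative without library 14 (-0.0125 points) or library 17 (-0.239 points).

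Sites were also split by their mean over all libraries. Those under 20%, the level of most unmethylated promoters, differed by 0.477 points (exact p = 0.284), those between 20% and 80% by 0.844 points (exact p = 0.528), and those above 80% by 0.229 points (exact p = 0.364). Chromosome X averaged 42.4% ± 2.36 in P and 41.0% ± 2.02 in noP, a difference of 1.41 points (exact p = 0.171). None of the 10 measures passed after adjustment (lowest adjusted p = 0.52 in the exact permutation test), although 4900 arrangements of the labels could have given a p as small as 0.000408. The difference did not differ between the diets for any of them by the same test (lowest exact p = 0.298).

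**Figure D1:**
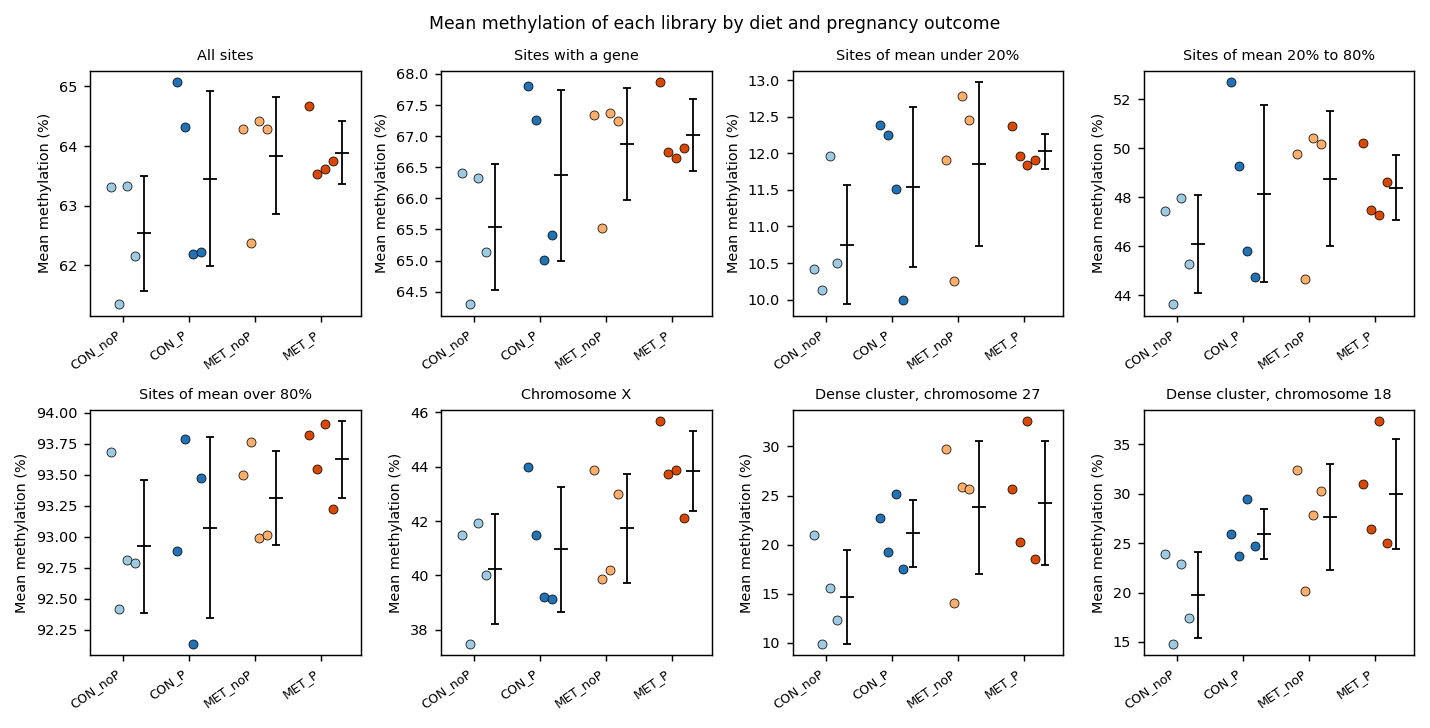
Mean methylation (%) of each library, in 8 classes of sites, for CON_noP, CON_P, MET_noP and MET_P (4 points each; the dash and bar are the mean ± SD). The libraries with and without pregnancy overlap in every panel. CON_noP has the lowest group mean in every panel, at 14.7% for the chromosome 27 cluster.

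Of the 199395 sites, 1 was differentially methylated between P and noP after adjustment (limma on M values with diet as covariate, Benjamini-Hochberg adjusted p under 0.05; 0.000502% of sites tested). M is log2 of the methylated over the unmethylated percentage, each with 1 point added. The count was 0 on untransformed percentages and 0 with moderation that follows the mean. An unadjusted p under 0.05 was reached at 7641 sites (3.83%), 4747 higher in P (2.38%) and 2894 lower (1.45%). The higher sites made up 62.1% of these, but 47.7% once the libraries were centred on the same median, so the excess of higher sites was lost with this scaling. The median absolute difference over all sites was 1.87 percentage points. Differences above 10 points were seen at 3835 sites (1.92%) and above 20 points at 52 sites.

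The sites described next had the lowest p in each direction among those that did not pass, and most were near full methylation. At chr2:61460162, outside annotated genes, P libraries ran from 90% to 100% (median 100%) and noP libraries from 73.3% to 90% (median 83.3%), a difference of 14.5 points (adjusted p = 0.124). At chr13:81197898 the medians were 100% and 94.9%, 4.94 points apart (adjusted p = 0.211). Among lower sites, chr2:134869573 had P values from 86.7% to 96.6% and noP values from 96.9% to 100%, which did not overlap, and differed by -7.10 points (adjusted p = 0.211). A site in SMAD3, which carries TGF-beta and activin signals to the nucleus, lay at chr10:14017323 with medians of 95.3% in P and 100% in noP and a difference of -5.24 points (adjusted p = 0.212). At chr16:79011059 the medians were 96.3% and 100%, and the difference was -3.96 points (adjusted p = 0.233). The 3 lower sites thus had noP libraries at the ceiling, as most P libraries were at the 2 higher ones.

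**Figure D2:**
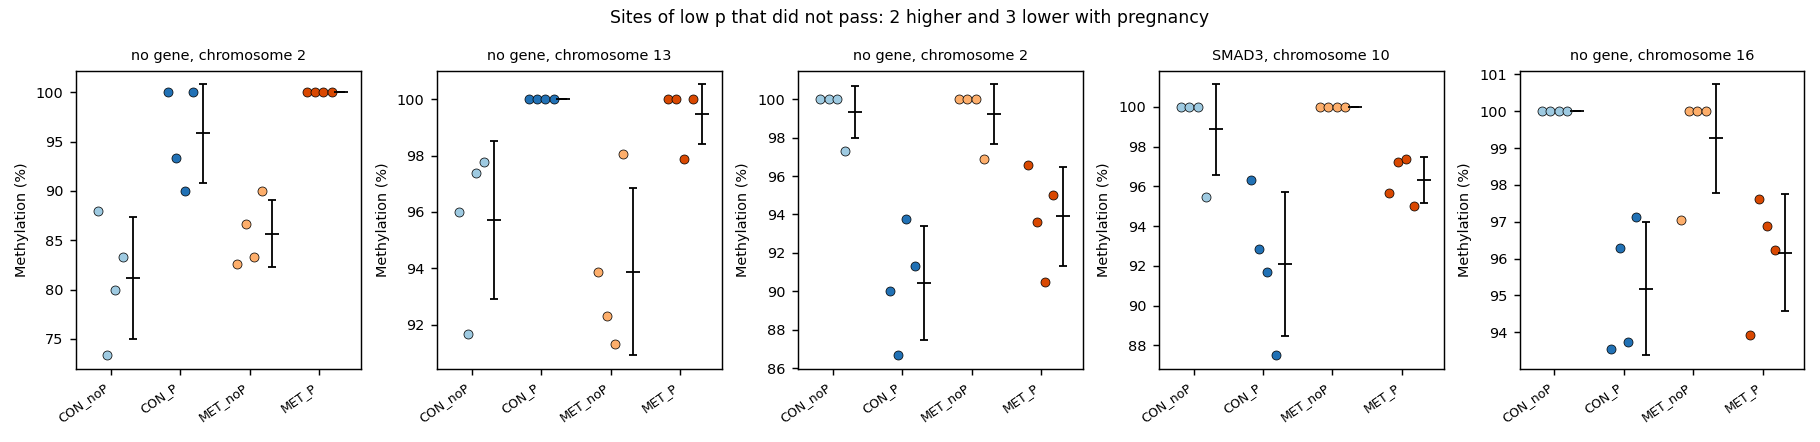
Methylation (%) of 5 sites with low p that did not pass after adjustment, 2 higher and 3 lower with pregnancy, by library and group (points; the dash and bar are the mean ± SD of 4 libraries). At the higher site of chromosome 2 the libraries with pregnancy lie at 90% to 100% and the others at 73.3% to 90%.

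The P and noP libraries did not overlap at 17 sites, with P above at 10 (0.00502% of sites tested) and below at 7 (0.00351%). Their median absolute difference was 8.13 points. How many features would separate under random labels was not computed, so these counts, and those of windows and genes below, are not read as an excess. Of the 10, 4 lay within 97 bp of each other on chromosome X. The others included intragenic sites of GALNT14 (5.46 points), an enzyme that starts mucin-type O-glycosylation, and INTS7 (3.36 points), a subunit of the Integrator complex. Sites of TMBIM1 (-6.21 points), DLGAP4 (-10.8 points) and BCAS1 (-15.6 points) were among the 7 below. The site with the widest separation, chr11:91421195, carried no gene name and had medians of 67.3% in P and 48.8% in noP, 22.0 points apart on average (limma unadjusted p = 0.00194, adjusted p = 1).

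Windows of 1 kb with at least 3 sites gave 26473 regions with a median of 5 sites. No window passed (lowest limma adjusted p = 1; 0% of windows tested), while the unadjusted p was under 0.05 in 905 (3.42%), with 623 higher in P (2.35%) and 282 lower (1.07%). The share of higher windows was 68.8%, and 56.3% after centring the libraries. The median absolute difference was 1.13 points, and 86 windows differed by more than 10 points. The windows with the lowest p in each direction were again near full methylation. In the zinc finger gene ZNF532 (chr24:58006105-58006123, 3 sites) the P libraries ran from 96.9% to 100% and the noP libraries from 88.3% to 97.5%, 3.73 points apart. The intergenic windows chr1:80318625-80318671 (3.49 points) and chr4:111564903-111564939 (4.45 points) followed. Lower in P were windows in LRRC1, a scaffold protein of cell polarity (chr23:6604751-6604789, -5.99 points), the kinase gene MAP3K21 (chr28:6241333-6241373, -3.77 points) and ENSBTAG00000051431 (chr5:118435472-118435523, -6.60 points), all with adjusted p = 1. In LRRC1 library 15 was far below the other MET_P libraries, at 78.4% against 93.8% to 95.8%.

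P and noP did not overlap in 4 windows, all with P above (0.0151% of windows), and P was below in none (0%). Values closer than 0.001 points were counted as tied here, and the MAP3K21 window had such a tie. The 4 windows were in FDX2, a mitochondrial ferredoxin (3.44 points), ARC, a neuronal cytoskeletal gene (3.67 points), IGF1R, the receptor of insulin-like growth factor 1 (chr21:8001663-8001884, 6.61 points), and an intergenic stretch of chromosome X. The IGF1R window had medians of 45.9% in P and 41.6% in noP over 4 sites. IGF1R as a whole, with 193 sites, had medians of 81.4% and 81.3%.

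The chromosome X window, chosen after its values were seen, spanned 477 bp (chrX:78833477-78833953) and held 27 sites, 25 of which were higher in P. Its mean was 36.9% ± 3.39 in P and 27.4% ± 4.13 in noP (SD, n = 8 each), a difference of 9.49 points, 12 in CON and 7 in MET. It did not pass (limma unadjusted p = 0.00172, adjusted p = 1, and unadjusted p = 0.00375 after centring). The larger differences were at one end. The last 13 sites, within 108 bp, were all higher in P, by 9.58 to 19.1 points. The first 14 ran from -1.83 to 13.2 points, with 12 of them higher in P. The window was cut at the first site where the groups did not overlap, so the contrast of the 2 stretches is partly built in. At chrX:78833889 the P libraries had a median of 43.3% and the noP libraries one of 24.7%. The sites share libraries and reads, and neighbouring CpGs are not independent.

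**Figure D3:**
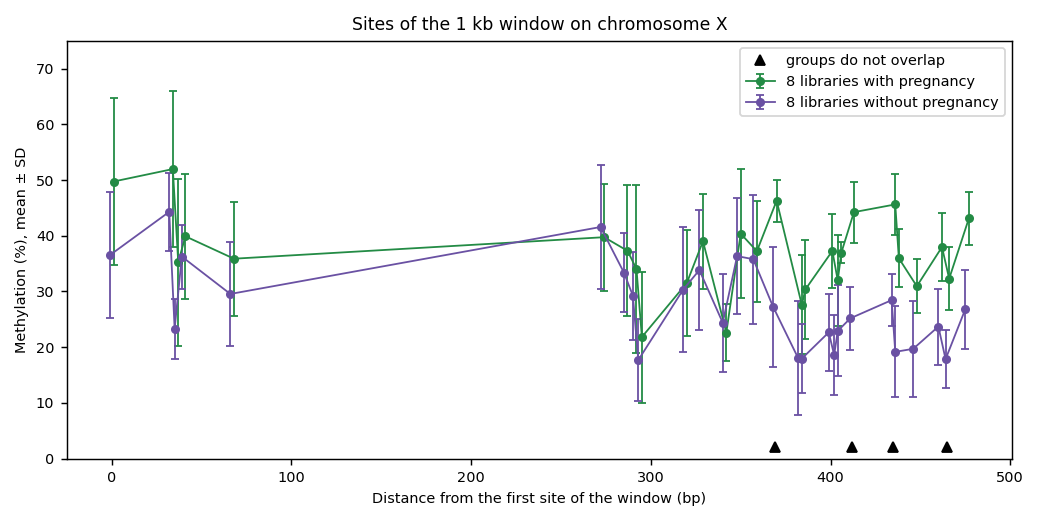
Methylation (%) of the 27 sites of the chromosome X window against the distance from its first site (bp), as mean ± SD over the 8 libraries with and the 8 without pregnancy. Triangles mark the 4 sites where the groups do not overlap. The last 108 bp begin at the first of these, and every site there is higher with pregnancy.

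Chromosome X had a larger median difference than the autosomes. The median difference of its 342 genes was 1.23 points, against 0.34 points for autosomal genes, and 240 of the 342 (70.2%) were higher in P, against 61.3% of autosomal genes. An unadjusted p under 0.05 was reached by 22 genes (6.43%), 18 higher and 4 lower, against 3.22% of autosomal genes, and by 335 sites (3.24%), 82.1% of them higher, against 3.86% of autosomal sites. After centring 17 of 21 such X genes were higher, beside 51.7% of such autosomal genes. Of such X sites 65.8% were higher, beside 47.0% of such autosomal sites. The difference between X and autosomes was not tested, and the mean of the chromosome did not pass, as given above. The sites of the whole chromosome averaged 42.4% in P and 41.0% in noP, and the share of all its genes between 10% and 60% was not computed. Of the 22 genes, 17 lay in that range. Those higher in P included PSMD10, a proteasome subunit (25.7% in P and 19.4% in noP), PHF8, a histone demethylase (28.9% and 21.6%), SUV39H1, a histone H3 lysine 9 methyltransferase (29.5% and 22.3%), and CSTF2, a factor of mRNA 3' end cleavage (33.1% and 26.1%). NXT2 (17.3% in P and 21.9% in noP) and TSPAN7 (46.5% and 51.2%) lay in the same range and were lower in P. All 22 had the same sign in both diets, which their choice by the pooled p favours. So had 286 of all 292 genes with an unadjusted p under 0.05 in the pooled comparison. In P the values of PSMD10 ran from 19.1% to 29.5% and in noP from 13.7% to 22.8%, which overlapped.

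Gene means were tested for 8687 genes with at least 2 sites. No gene passed (lowest limma adjusted p = 0.898; 0% of genes tested). An unadjusted p under 0.05 was reached by 292 genes (3.36%), 219 higher in P (2.52%) and 73 lower (0.84%), so that 75% were higher, and 54.3% after centring the libraries. The median absolute difference of a gene was 0.897 points, and 9 genes differed by more than 10 points. P and noP did not overlap for 2 genes (0.023%), both with P above.

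Those 2 genes were SMAGP and FDX2. SMAGP, a small transmembrane glycoprotein of epithelial cell adhesion, was measured at 2 sites at chr5:28522151-28522723. The P libraries ran from 10.6% to 13.5% with a median of 12%, and the noP libraries from 6.75% to 10.1% with a median of 8.71%. The difference was 3.36 points, 3.48 in CON and 3.25 in MET (limma unadjusted p = 0.000103, adjusted p = 0.898). FDX2 rested on the 3 sites of its window, with medians of 95.9% and 93.7% (unadjusted p = 0.00608, adjusted p = 0.999).

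Among the other genes with the lowest p, higher methylation in P was seen in genes with low and with high levels. GPRIN2, a regulator of neurite outgrowth, had 8 sites, all higher in P. Its values ran from 92.5% to 97.1% in P and from 85.4% to 93.3% in noP, a difference of 4.41 points. IL17RB, the receptor for interleukins 17B and 25, had medians of 12.1% in P and 8.40% in noP at 2 sites (4.18 points). RBM27, an RNA-binding protein, had medians of 98.3% and 96.5% (2.08 points). SYN1, the synaptic vesicle protein synapsin I on chromosome X, had medians of 33.2% and 24.7% (8.87 points), with all 7 of its sites higher. ENSBTAG00000049459 differed by 3.46 points. The adjusted p was 0.999 for each of these 5 genes.

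Lower methylation in P was seen first in MDM2, the ubiquitin ligase that targets p53. Its 2 sites at chr5:45004761-45005167 averaged 3.65% to 6.83% in P (median 4.74%) and 5.57% to 11.1% in noP (median 8.72%), a difference of -3.49 points. It was followed by ENSBTAG00000054727 (-2.12 points), METTL11B, an N-terminal protein methyltransferase (-1.99 points), SCAMP2, a membrane protein of secretory vesicles (-3.42 points), GRIA4, a glutamate receptor subunit (-2.51 points), and UAP1, which makes UDP-N-acetylglucosamine (-2.41 points). The adjusted p was 0.999 for each. Every one of these 6 genes was lower in P within both diets, which their choice by the pooled p favours. The ranges of P and noP overlapped in each.

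Genes with at least 10 sites have means that lean less on 1 position. In some the sites lie close together, as in RYR2 (chr28:10256347-10256422) and TLR9 (chr22:48679818-48679950). Such a mean describes a short stretch and not the whole gene, and its neighbouring sites are not independent. In others, as in TSPAN7 (chrX:104597905-104712401), they are spread more widely. Of 3464 such genes, those with the lowest p and higher methylation in P were RYR2, the calcium release channel of heart muscle (14 sites, medians 93.0% and 90.7%, 2.05 points), POMT2, an O-mannosyltransferase (12 sites, 1.09 points), ENSBTAG00000052022 (10 sites, 4.17 points), TLR9, the endosomal sensor of unmethylated CpG DNA (10 sites), ENSBTAG00000050389 (25 sites, 1.61 points) and CSTF2 (13 sites, 6.98 points). All 10 sites of TLR9 were higher in P. Its mean ran from 84.8% to 93.6% in P (median 86.9%) and from 79.7% to 86.8% in noP (median 83.3%), a difference of 3.92 points. GRIA4 came first among the lower ones and was followed by TSPAN7, a tetraspanin (13 sites, medians 44.9% and 50.9%, -4.69 points), ENSBTAG00000049404 (30 sites, -6.92 points), ENSBTAG00000053793 (10 sites, -5.08 points), ZNF142 (13 sites, -1.88 points) and ENSBTAG00000038497 (11 sites, -2.09 points). None of the 12 passed (limma adjusted p = 0.999 for each).

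**Figure D4:**
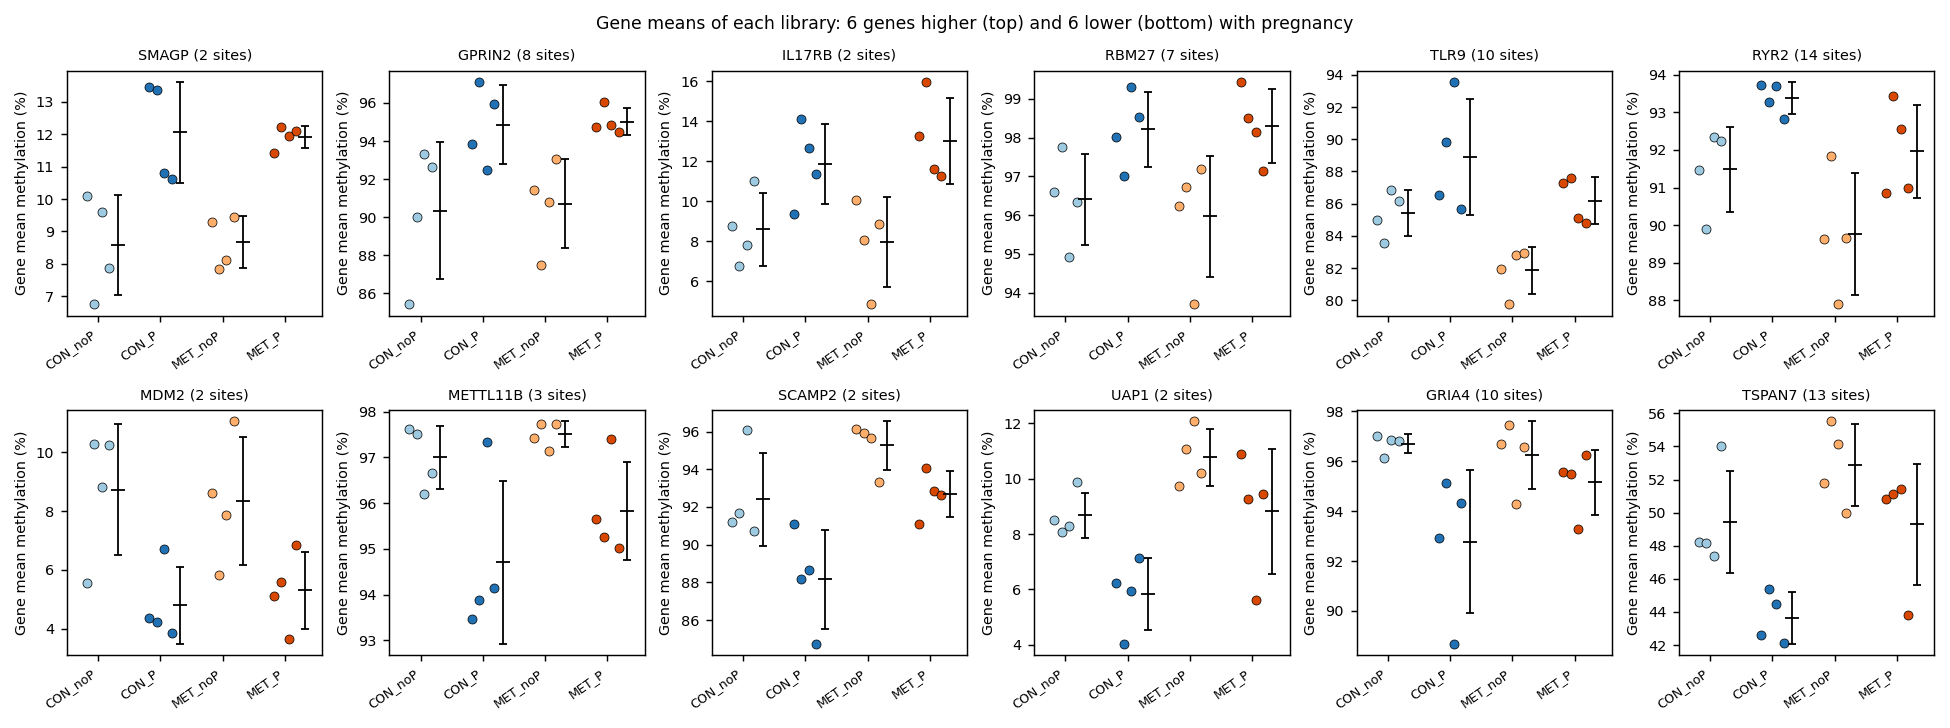
Gene mean methylation (%) in each library for 6 genes higher (top row) and 6 lower (bottom row) with pregnancy (points; the dash and bar are the mean ± SD of 4 libraries; the y axes do not start at 0). In SMAGP the 8 libraries with pregnancy sit between 10.6% and 13.5%, above all 8 without.

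The pooled comparison rests on a difference that is shared by both diets, so the within-diet differences were set side by side. The diets share no library. Across 8687 genes the difference in CON and that in MET had a Pearson r of -0.29, across 26473 windows one of -0.31 and across 199395 sites one of -0.18. With any 1 library left out r ran from -0.37 to -0.16 for genes, from -0.41 to -0.15 for windows and from -0.26 to -0.097 for sites. On M values r was -0.17, -0.15 and -0.066. All points share the same 16 libraries and each diet's points share its 8, so r carries no test. The 2 differences had the same sign for 44.8% of genes, 44.0% of windows and 46.2% of sites.

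Of the genes with an unadjusted p under 0.05 in the pooled comparison, 286 of 292 had the same sign in both diets, which the pooling itself favours. Within CON 364 genes (4.19%) and within MET 377 genes (4.34%) had an unadjusted p under 0.05. No gene passed after adjustment within either diet (limma, lowest adjusted p = 0.13 in CON and 0.114 in MET). Of the 8687 genes tested, 33 had an unadjusted p under 0.05 within both diets. Of these, 14 went in the same direction (11 higher in P and 3 lower) and 19 in opposite directions. For the 199395 sites the counts were 316 the same and 413 opposite, and for the 26473 windows 29 and 58. The 14 genes were SMAGP, GPRIN2, IL17RB, RBM27, RYR2, POMT2, TLR9, ENSBTAG00000052022, NUDT17, MFSD10 and C7orf61, which were higher, and MDM2, METTL11B and SCAMP2, which were lower. NUDT17, at 2 sites, differed by 5.16 points in CON and 5.93 points in MET. MFSD10, a membrane transporter with 8 sites, had medians of 34.8% in P and 30% in noP and differed by 6.11 points in CON and 5.20 points in MET.

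In the genes with opposite directions the pooled difference was close to 0. ARHGEF3, an activator of the GTPase RhoA, was higher in P by 14.7 points in CON and lower by 12.2 points in MET, which left 1.23 points pooled. CDK3, a cyclin-dependent kinase, differed by 13.3 and -11.9 points, and the transcriptional regulator ZBTB12 by 13 and -10.8 points. RAB5C, a GTPase of early endosomes, differed by -9.66 points in CON and 6.41 points in MET. PRELP, a proteoglycan of connective tissue, differed by 7.99 and -7.80 points. CD6, a receptor of T cells, differed by -2.70 and 2.65 points. Of these genes CDK3 and RAB5C rest on 2 sites each.

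**Figure D5:**
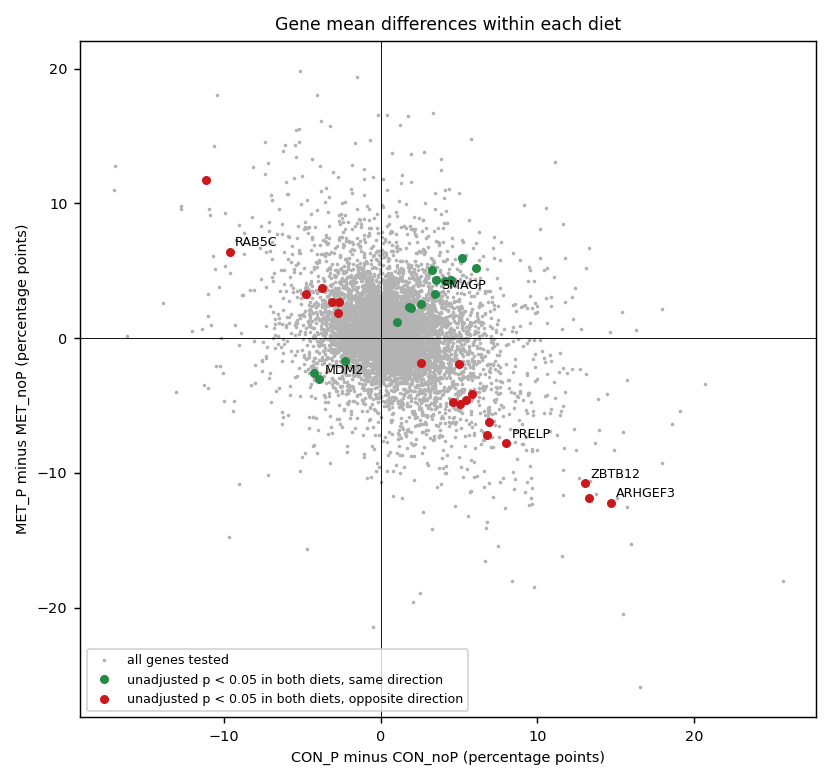
Difference in gene mean methylation between pregnancy and no pregnancy (percentage points) in CON (x axis) and in MET (y axis), one point per gene (8687). Green marks the 14 genes with an unadjusted p under 0.05 in both diets in the same direction and red the 19 in opposite directions.

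The test of the interaction of diet and outcome asks whether the outcome difference itself differed between diets. It passed for 2 sites (limma adjusted p under 0.05; 0.001% of sites), 1 window (0.00378%) and no gene (0%, lowest adjusted p = 0.226), with unadjusted p under 0.05 at 10467 sites (5.25%), 1454 windows (5.49%) and 469 genes (5.4%). At chr17:63124677, outside annotated genes, the CON_noP libraries were at 97.0, 93.3, 98.8 and 87.5% and the CON_P libraries at 69.0, 41.7, 68.8 and 76.3%. The MET_noP libraries were at 69.1, 75, 81.1 and 70.8% and the MET_P libraries at 98.0, 98.9, 97.5 and 97.2%. The site was thus lower with pregnancy in CON by 30.2 points and higher in MET by 23.9 points, with no overlap within either diet (adjusted p = 0.0229). The window around it, chr17:63124661-63124680 with 3 sites, differed by -11.7 and 9.58 points (adjusted p = 0.019).

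The other site lay in PSD3, an exchange factor for the GTPase ARF6, at chr27:38936982. The CON_noP libraries had 93.5, 92.3, 94.1 and 91.8% and all CON_P libraries 100%. In MET 3 of the noP libraries were at 100% and the last at 98.2%, and the P libraries were at 88.9, 94.6, 95.5 and 95.7%. The difference was 7.05 points in CON and -5.91 points in MET (limma adjusted p = 0.015). On untransformed percentages neither site passed (adjusted p = 0.536 and 0.877), nor did the window (adjusted p = 0.256), which also missed the threshold with an offset of 0.1 points (adjusted p = 0.0501) and without any 1 of 11 of the 16 libraries. The site in PSD3 was no longer called without library 13 (adjusted p = 0.0745), 16 (0.0531) or 17 (0.0594), and the site on chromosome 17 without any 1 of libraries 13, 16, 17, 19, 27 and 29 (0.0531 to 0.105).

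Genes of uterine function were followed as lists, described by counts beside those over all 8687 genes, of which 2.52% were higher and 0.84% lower at an unadjusted p under 0.05, with a median difference of 0.357 points. No list held a gene that passed after adjustment. The lists were written with earlier results of these data known. Steroid and other nuclear receptors and their coregulators set the response of the endometrium to estrogen and progesterone. Of 42 measured, 1 was lower at an unadjusted p under 0.05 and none higher, and the median difference was 0.37 points. That gene was NR1H2, a liver X receptor (-1.69 points, unadjusted p = 0.0499). ESR1, the estrogen receptor, had medians of 86.0% in P and 86.3% in noP, and PGR, the progesterone receptor, 13.7% and 13.9%.

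Prostaglandins and oxytocin drive luteolysis in cattle. Of 28 genes listed for prostaglandins, leukotrienes and oxytocin, none reached a limma unadjusted p under 0.05, and the median difference was 0.361 points. OXTR, the oxytocin receptor, had medians of 34.4% in P and 33.1% in noP, and PTGIS, the prostacyclin synthase, 72.0% and 69.9%. PTGER1, a prostaglandin E receptor, had the widest difference of the list (8.42 points, unadjusted p = 0.177) and a range of 10.1% to 58.3% in noP alone. Its difference was 16.3 points in CON and 0.574 points in MET. ALOX12 had the lowest p of the list and was lower in P (-3.09 points, limma unadjusted p = 0.0872).

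Among 56 genes of endometrial receptivity 1 was higher and 1 lower at an unadjusted p under 0.05, with a median of 0.515 points. After centring the count was 0 higher and 1 lower. WNT5A, a WNT ligand of the uterine stroma, had medians of 70.2% and 66.8% over 11 sites (3.39 points, limma unadjusted p = 0.0358). HOXA9, a homeobox gene of the reproductive tract, had medians of 7.85% and 10.3% (-3.60 points, limma unadjusted p = 0.0136). The HOXA9 value rests on 2 adjacent positions (chr4:68877569-68877570), which can be the 2 strands of 1 CpG, and does not describe the whole gene. HOXA10, which the uterus needs for implantation, had medians of 11.3% and 10.2% over 14 sites, FOXA2, a transcription factor of uterine glands, 20.1% and 19.1% over 21 sites, and LIF, a cytokine of implantation, 36.2% and 39.1%. MUC1, the mucin of the luminal surface, ran from 17.5% to 52.5% in P and from 16.7% to 43.8% in noP. Its difference was 11.7 points in CON and -8.12 points in MET.

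In WNT signalling, 4 of 66 genes were higher in P at an unadjusted p under 0.05 and none lower, and the median was 0.759 points. After centring, 1 gene was higher. The 4 were the ligands WNT11 (2.17 points), WNT5A (3.39 points) and WNT3A (4.92 points) and the transcription factor TCF7L1 (2.43 points). In P the values of WNT11 ran from 86.4% to 90.1% and in noP from 84.3% to 89.0%. Among members lower in P, SFRP5 had the lowest p (-2.73 points, limma unadjusted p = 0.108). For NOTCH signalling (29 genes, median 0.49 points) and axon guidance (73 genes, median 0.133 points) the count was 0 in both directions. NOTCH ligand DLL1 came nearest, with medians of 86.8% and 84.9% over 20 sites (unadjusted p = 0.0537). Of 124 genes of the extracellular matrix and integrins 1 was higher, ITGBL1 (3.53 points, unadjusted p = 0.0197), with a list median of 0.403 points. After centring the count was 1 higher and 1 lower.

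The methionine cycle supplies the methyl groups of DNA methylation, and the next list joined its genes with those that write, read or remove the mark. None of the 21 genes reached an unadjusted p under 0.05. Their median was 0.772 points, and 17 of 21 were higher in P, 14 of 21 after centring, beside 61.7% of all genes and 50.0% after centring. DNMT3A, a de novo methyltransferase, had medians of 61.4% and 59.4% over 44 sites (1.67 points, unadjusted p = 0.151), TET3, which oxidises methylcytosine, 86.7% and 86.5%, and MAT2A, which makes S-adenosylmethionine, 9.63% and 8.44%. Of 26 imprinted genes 1 was higher at that level, ASCL2, a trophoblast transcription factor (medians 9.75% and 6.88%, unadjusted p = 0.0234), and the median was 0.402 points. After centring the count was 1 higher and 2 lower. IGF2R, the scavenging receptor of insulin-like growth factor 2, had medians of 66.6% and 64.9% over 244 sites (1.29 points, unadjusted p = 0.302).

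Among 72 genes of uterine innate immunity 3 were higher and 2 lower at an unadjusted p under 0.05, and the median was 0.157 points. The higher ones were IL17RB and TLR9, described above, and NFKB1, a subunit of NF-kappa-B (2.63 points, unadjusted p = 0.0145). The lower ones were the chemoattractant IL16 (medians 88.3% and 92.3%) and the chemokine CXCL16 (6.42% and 7.56%). A further list held genes printed for both diets in the source publication, which are a part of a longer list. Of the 47 measured, 2 were higher at that level and none lower, with a median of 0.857 points. They were CAMK2B, a calcium-dependent kinase (medians 66.4% and 63.7%), and AFF3, a nuclear protein of lymphoid cells (72.2% and 67.3%). The list median was 1.44 points in CON and -0.0329 points in MET. The study called these genes at single CpG sites, and some of them were lower with pregnancy there. The values here are means over all measured sites of a gene. The study chose that list on these samples, so it is not independent evidence of a direction.

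Marker genes of the cell types that a brush can collect were summed up the same way. Methylation does not give their expression, so the labelled tissue could not be checked by it. Of 36 leukocyte markers none reached an unadjusted p under 0.05, with the largest median of the lists, 1.51 points. Their mean ran from 58.4% to 64.6% in P and from 59.9% to 61.7% in noP. Of the 36 markers 26 were higher in P, and their differences ran from -3.29 to 7.01 points. The highest was that of ITGAL, an integrin of leukocytes (unadjusted p = 0.112). Of 26 epithelial markers 1 was higher, the tight junction gene OCLN (medians 97.0% and 95.6%, unadjusted p = 0.0139), with a median of -0.33 points and means of 43.7% to 53.9% in P and 43.4% to 53.2% in noP. None of 18 stromal or 19 endothelial markers reached an unadjusted p under 0.05 (medians -0.142 and 0.0766 points). Of 14 germline markers, which mature uterine tissue should keep silent, TDRD6 was higher and MAEL lower at an unadjusted p under 0.05, and the median was 0.247 points. The part of the cell mix in the results above was not tested. On the M scale the medians of the axon guidance, innate immunity, stromal, endothelial and germline lists were above 0 and fell below it after centring. The stromal median was above 0 on the M scale although it was below 0 in points. Centring lowered the M difference of every gene by the same amount, and the median of all genes went from 0.0376 to 6.65e-05.

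Dense runs of sites, with gaps of at most 500 bp and at least 100 sites, formed 9 clusters that held 2218 sites. The largest, chr27:6219034-6225679, had 1214 sites. It averaged 22.7% ± 4.99 in P and 19.3% ± 7.30 in noP (SD, n = 8 each), a difference of 3.46 points (exact permutation p = 0.233), 6.47 points in CON and 0.455 points in MET. At 1160 of its 1214 sites P was higher, beside 55.7% of all sites. Only 24 of the 1214 had a limma unadjusted p under 0.05, beside 3.83% of all sites. The sites of the cluster move together. The P libraries ran from 17.5% to 32.6% and the noP libraries from 9.92% to 29.7%. A cluster of 158 sites at chr18:59225247-59226010 averaged 28% ± 4.53 in P and 23.7% ± 6.19 in noP, a difference of 4.24 points (exact p = 0.0869, adjusted p = 0.52), 6.21 in CON and 2.27 in MET. In the IGF2R cluster (139 sites, chr9:96221360-96223066) the means were 47.0% and 44.7%, in that of FAM155B on chromosome X 28.7% and 25.4%, and in that of TNXB on chromosome 23 30.4% and 32.1%. The 2 clusters in PHEX were almost fully methylated, at 96.7% and 96.3% in the larger and 97.1% and 96.9% in the smaller.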

How the data were processed

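Per the submitters' notes and methods, reads were cleaned by Trim Galore and mapped by Bismark on the bovine assembly ARS-UCD1.2, and SeqMonk then computed, at cytosines covered by enough reads, the percent methylation. Positions with a missing or zero value were dropped. The deposited values are percentages per position and library, without normalisation between libraries and without counts, so the logistic regression on reads that the study used could not be repeated.

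Columns were assigned to groups by the group name above them and the library number. M = log2((percent + 1)/(100 - percent + 1)) was fitted with limma 3.58.1 in R 4.3.3 (diet and outcome, no trend), with Benjamini-Hochberg adjustment over all features and a threshold of 0.05. The interaction used diet, outcome and their product, and within-diet contrasts came from a model of 4 group means. Windows were fixed 1 kb bins with at least 3 sites, and genes needed at least 2 sites. In all, 41 gene IDs with shared or RNA family names were left out. Single values per library were compared by an exact test that permuted outcome labels inside each diet. Python 3.11.15, numpy 2.4.6, pandas 2.3.3, scipy 1.17.1, matplotlib 3.10.9 and the R package data.table (1.17.8) were used. The scripts were tested on simulated data.

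Members and lists were chosen with earlier results of these data known. Named were the 3 sites and windows with the lowest p in each direction. The 6 genes of lowest p in each direction were named among all genes and among those with at least 10 sites. For each list only some members are named. They came from the 2 members of lowest p in each direction, those with unadjusted p under 0.05 and a set of fixed genes. Columns carry library numbers but no replicate numbers. The deviations of libraries with consecutive numbers from their group means did not correlate (r across genes from -0.115 to 0.134), and no pairing was assumed. Alternatives covered the transformation, offset, moderation, covariates, weights, centring, filters, feature definitions and each library left out. Positions are given as deposited, on ARS-UCD1.2. Results of some items withheld from this text, the site that passed among them, are not reported here.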

Additional observations from a re-analysis of the deposited data

Results flagged for a closer look

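Within each group of 4 libraries, the lowest or highest value was compared with its nearest neighbour relative to the range of the group (Dixon's test at 95%). It stood apart in 20 of 180 groups. Chance flags about 1 in 20 groups that are independent and free of ties, which these are not, since 7 of the 20 arise from ties at 100% and 5 from 1 library in overlapping sets of sites, so the count is not read against that rate. Library 17 of MET_noP was lowest in 5 of them. It was at 62.4% over all sites (others 64.3% to 64.4%), 65.5% at sites with a gene (67.2% to 67.4%), 56.8% at sites without one (58.8% to 59.1%) and 44.7% at sites of intermediate level (49.8% to 50.4%), and 77.3% of its sites were above 20% methylation (82.8% to 83.3%). Library 15 of MET_P was highest at sites with a gene, at 67.9% (others 66.6% to 66.8%).

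In 7 groups the other 3 libraries were tied at 100%. The library apart was at 97.9% in MET_P for the site chr13:81197898, at 97.3% in CON_noP and 96.9% in MET_noP for chr2:134869573, at 95.5% in CON_noP for the SMAD3 site, at 97.1% in MET_noP for chr16:79011059, at 98.9% in CON_P for the ZNF532 window and at 98.5% in CON_noP for the LRRC1 window.

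Library 15 of MET_P was lowest in the windows of LRRC1 (78.4%) and MAP3K21 (89.6%, others 94.9% to 95.8%). Library 31 of MET_P was lowest in ENSBTAG00000052022 (89.9%, others 95.0% to 95.1%) and TSPAN7 (43.8%, others 50.8% to 51.4%), and library 28 of CON_noP was highest in TSPAN7 (54.0%, others 47.4% to 48.2%). Library 30 of CON_P was lowest in ZNF142 (83.8%, others 84.8% to 84.9%), and library 12 of CON_noP in ENSBTAG00000038497 (86.6%, others 92.0% to 92.6%).

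The outcome difference differed between the diets at 2 sites and 1 window. MET minus CON was 6.80 in log2 M at chr17:63124677 (limma adjusted p = 0.0229), -5.61 at the PSD3 site (adjusted p = 0.015) and 4.09 in the window chr17:63124661-63124680 (adjusted p = 0.019).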

How the results depend on the processing

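No paired analysis was possible because the columns carry library numbers and no replicate numbers. With sets of consecutive library numbers as a block, 1 site, 0 windows and 0 genes passed, as without it. The count of called sites (1) was 0 on untransformed percentages, 0 with a moderation trend, 0 for sites with a mean of 10% to 90%, 2 with array weights, and 1 to 5 with a library left out (5 without library 18, 4 without 13, 3 without 28, and 2 without 16, 26, 29 or 30). Windows and genes stayed at 0 throughout, also with a library left out. Interaction sites (2) were 0 on percentages, 25 with an offset of 0.1 points and 0 to 6 with a library left out (0 without library 13, 16 or 17, 1 without 27 or 29, 4 without 12 or 30, 5 without 15 and 6 without 28). The interaction window was lost on percentages (0), with the 0.1 offset (0) and without any 1 of 11 libraries (0 to 1), and interaction genes ran from 0 to 1. The cause was not tested. With a library left out, the differences ran from 0.212 to 0.693 points for all sites, 0.249 to 0.716 with a gene, 0.147 to 0.757 without one, 0.211 to 0.733 under 20%, 0.0826 to 1.41 at 20% to 80%, 0.109 to 0.385 above 80%, 0.904 to 1.77 on chromosome X, 1.83 to 4.51 in the chromosome 27 cluster and 2.99 to 5.06 in the chromosome 18 cluster. The share above 20% ran from -0.239 (without library 17) to 1.01 points and was -0.0125 without library 14. The share of higher calls at unadjusted p under 0.05 ran from 56.3% to 64.7% for sites, 62.3% to 73.2% for windows and 69.1% to 80.8% for genes. Chromosome 2 held no dense cluster, so that planned value was not computed. The alternatives for the agreement between diets, and those by class, list and X window after centring, were added after seeing the data. Percentages without depth give no counting error for any site.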
